A study of Mus musculus with 11 samples.

Results

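Genes of the photoreceptor and bipolar cell synapse were followed through the retina of newborn mice with Phase I retinopathy of prematurity (ROP). The 10 genes were chosen by name, as 10 of the 25311 genes in the single-cell count table, and all 10 were present in it: Ctbp2, Bsn, Pclo, Rims1, Rims2, Unc13b, Cacna1f, Cacna2d4, Cplx3 and Cplx4. They were read in rods, cones, bipolar cells and amacrine cells, with Müller glia beside them as a class without presynaptic active zones of this kind. All 11 mice were C57BL/6J pups whose retinas were taken at postnatal day 10 and dissociated with papain for inDrop droplet sequencing. The 3 control mice received phosphate-buffered saline (PBS), and the 3 Phase I ROP mice, their littermates, received streptozotocin (STZ), a toxin of the insulin-producing beta cells that raises blood glucose. A second set of littermates all received STZ and was split into 2 cages: the 2 ω-3 mice nursed from dams on an ω-3-enriched diet and the 3 ω-6 mice from dams on an ω-6-enriched one. Diet, cage and dam therefore cannot be told apart, and the ω-3 and ω-6 groups had no PBS mice of their own. STZ reaches the whole pup, so a group difference in the retina does not separate the toxin from the glucose level.

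Photoreceptors and bipolar cells release glutamate continuously, and they do so at ribbon synapses, where a plate-like ribbon tethers vesicles above the presynaptic membrane. Ctbp2 encodes RIBEYE, the main protein of the ribbon, from an internal start, and the same gene also encodes a transcriptional corepressor. Bassoon (Bsn) anchors the photoreceptor ribbon to the active zone and piccolo (Pclo) is its large scaffold relative. RIM1 and RIM2 (Rims1, Rims2) bind calcium channels and vesicles, and Munc13-2 (Unc13b) primes vesicles for fusion. Calcium enters the terminal through a channel whose pore is encoded by Cacna1f and whose α2δ subunit is encoded by Cacna2d4. Complexins clamp and promote SNARE-driven fusion, and the retinal ribbon synapse uses complexin 3 and complexin 4 (Cplx3, Cplx4), which carry a lipid anchor, in place of the complexins of conventional synapses. Amacrine cells use conventional synapses for the most part. Mutations in CACNA1F and CACNA2D4 are known causes of human retinal disease.

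The libraries held 2565568 to 6517776 unique molecular identifier (UMI) counts per mouse and a median of 674 to 1146 genes per cell. Of 20067 cells, 20033 had more than 300 genes and were kept: 3205 from control, 5748 from Phase I ROP, 4950 from ω-3 and 6130 from ω-6 mice. Cells were clustered, and clusters were named from marker genes: 1 cluster of 6984 rods, 1126 cones, 3596 bipolar cells in 2 clusters, 3287 amacrine cells in 5 clusters and 1425 Müller glia, while 3338 cells in 11 clusters stayed unnamed, 9 of them of rod profile. Of 18872 distinct barcodes, 1157 occurred in more than 1 library. The control libraries stood apart from the rest. They gave only 75 to 284 rods and 13 to 46 cones per mouse, against 523 to 1114 rods and 96 to 134 cones in Phase I ROP. A list of 5 structured and mitochondrial RNAs took 22238 to 54293 CPM (UMI counts scaled to the total of a class in a mouse) in the control mice and 4045 to 13329 in the Phase I ROP mice, and a list of 28 dissociation-response genes took 220 to 884 CPM and 1276 to 5247 CPM. These values moved with the group in all 4 classes, and their part in the differences described for Phase I ROP was not tested.

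Promoter sequence was matched for 7 of the 10 genes in a RefSeq table of the mouse build GRCm38.p6, as 8 windows of which Ctbp2 had 2. The 250 bases before each start were searched on both strands for TAATCC and CTAATC, letters that photoreceptor homeobox factors are known to bind, for the E-box CAGCTG, for the AP-1 and CRE motifs TGACTCA and TGACGTCA, and for the GC box CCCGCC. Cplx3, the gene whose change was followed most closely below, held CTAATC and CAGCTG, 136 and 131 bases before its start and overlapping by a shared base. The capitals mark these letters in the upstream sequence of Cplx3, which lies at chr9:57606282-57606531 and is written on the gene's minus strand.
Cplx3 upstream: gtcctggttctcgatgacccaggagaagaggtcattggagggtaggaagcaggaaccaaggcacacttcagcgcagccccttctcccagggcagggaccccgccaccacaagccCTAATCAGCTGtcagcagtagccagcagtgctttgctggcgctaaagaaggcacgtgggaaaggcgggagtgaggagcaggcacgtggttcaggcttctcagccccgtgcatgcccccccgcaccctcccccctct
The second Ctbp2 window stood at an internal start of the gene, and 26 bases of it, at chr7:133015353-133015378 on the minus strand, held TAATCC on the opposite strand, 121 bases before that start. The capitals mark it. The stretch is also annotated as untranslated exon of other Ctbp2 transcripts.
Ctbp2 internal start: aggtttcagaGGATTAataatttagg
Among all 32851 promoters of the table, TAATCC occurred in 6.25%, CTAATC in 5.71%, CAGCTG in 13%, TGACTCA in 4.46% and TGACGTCA in 1.55%. CCCGCC, found before Bsn, Cacna1f, Cplx3, Pclo, Rims1 and Unc13b, was the commonest at 32.5%. A match is a description of letters and not a measured binding site.

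Levels were first compared across classes within each gene, as CPM of all UMIs of a class in a mouse, a description with no test because the classes were drawn from the same cells and genes. The 10 genes fell into different patterns. Among the ribbon and scaffold genes, Ctbp2 (chromosome 7, 132987563 to 133124354) was at 212 ± 76.5 CPM in cones and 196.5 ± 85.0 in rods. Bipolar cells held 137 ± 60.5 CPM, amacrine cells 73.8 ± 21.7 and Müller glia 66.3 ± 28.1 (SD, n = 11 mice, as for all levels by class). Each of its neighbouring classes overlapped, and rods lay above bipolar cells in 11 of 11 mice. UMI counts of Ctbp2 do not separate RIBEYE from the corepressor, which shares its later exons. Bsn (chromosome 9, 108096022 to 108190384) was at 80.8 ± 32.1 CPM in amacrine cells, above the range of every other class, and at 21.9 ± 11.2 in bipolar cells, 16.9 ± 11 in cones, 11.6 ± 8.68 in rods and 3.43 ± 2.38 in Müller glia. Pclo (chromosome 5, 14514918 to 14863459) also had its highest mean in amacrine cells, at 179.5 ± 39.1 CPM, without overlap with bipolar cells at 71.9 ± 22.8. Cones at 53.5 ± 39.5 and rods at 47.0 ± 13.9 overlapped each other. The highest cone value, 156 CPM, lay above the lowest amacrine value, 117 CPM.

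The vesicle priming genes divided. Rims1 (chromosome 1, 22286251 to 22805994) was at 605.5 ± 180.2 CPM in amacrine cells and at 22.2 ± 6.88 in bipolar cells, with no overlap, and at 3.27 ± 3.6 in rods and 2.76 ± 5.28 in cones, below the 8.23 ± 5.50 of Müller glia. Its relative Rims2 (chromosome 15, 39198261 to 39684372) did not show this pattern. Rims2 was at 134 ± 39.9 CPM in bipolar cells, 129 ± 59.5 in rods, 124 ± 46.9 in cones and 99.6 ± 27.6 in amacrine cells, 4 overlapping ranges, and at 21.5 ± 11.4 in Müller glia. Unc13b (chromosome 4, 43058953 to 43264871) was at 96.3 ± 27.0 CPM in bipolar cells, 74.9 ± 16.4 in cones, 71.2 ± 28.7 in rods, 42.9 ± 13.5 in Müller glia and 29.2 ± 9.71 in amacrine cells, each range overlapping the next.

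The calcium channel genes were at their lowest in amacrine cells and Müller glia. Cacna1f (chromosome X, 7607083 to 7635196) was at 73.0 ± 20.9 CPM in cones and 46.9 ± 17.1 in rods, cones being higher in 11 of 11 mice, and at 34.6 ± 11.4 in bipolar cells, 6.71 ± 6.51 in Müller glia and 3.59 ± 2.76 in amacrine cells. Cacna2d4 (chromosome 6, 119236526 to 119352407) was at 295 ± 73.4 CPM in bipolar cells, 202 ± 88.7 in cones and 181.5 ± 58.9 in rods. Bipolar cells were above cones in 11 of 11 mice, and amacrine cells, at 13.7 ± 8.21 CPM, and Müller glia, at 17.4 ± 14.8, lay below the range of rods and bipolar cells.

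The complexin genes differed in their order. Cplx3 (chromosome 9, 57599992 to 57606281) was at 618.5 ± 126 CPM in bipolar cells, 486 ± 124 in amacrine cells, 414 ± 143 in cones, 169 ± 77.3 in rods and 20.7 ± 13.9 in Müller glia. Rods overlapped cones in range but were lower in 11 of 11 mice. Cplx4 was at 584 ± 132.5 CPM in rods and 465 ± 86.0 in cones. Bipolar cells held 74.2 ± 29.3 CPM, Müller glia 37.4 ± 31.7 and amacrine cells 12.9 ± 10.7. Its cone and bipolar cell ranges did not overlap. Over the 44 sums of 4 classes and 11 mice, log2 CPM of Cplx3 and Cplx4 correlated at Pearson r = -0.55, a description over sums that share libraries, depth and mice.

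**Figure D1:**
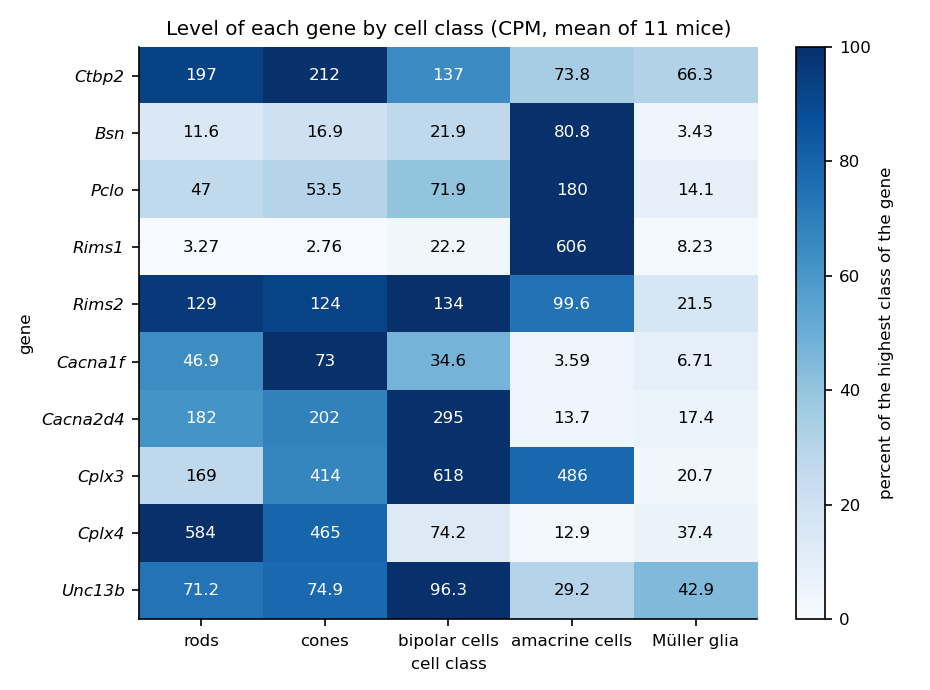
Levels of the 10 genes (rows) in rods, cones, bipolar cells, amacrine cells and Müller glia (columns). The printed value is the mean CPM of 11 mice and the colour gives that mean as a percentage of the gene's highest class. Bsn, Pclo and Rims1 were highest in amacrine cells, Cplx4 in rods, and Cplx3 and Cacna2d4 in bipolar cells.

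The clusters within the classes differed further, again as a description, with only mice of 10 or more cells in a cluster counted. Bipolar cells formed a cluster led by Pcp2, Isl1 and Trpm1 (2669 cells), genes of rod and ON bipolar cells, and a cluster led by Grik1, Scgn and Fezf2 (927 cells), which are known from OFF and other cone bipolar cells. Cplx3 was at a mean of 635 CPM in the Trpm1 cluster and 574 in the Grik1 cluster. Cplx4 gave 79, 58 and 22 UMIs in the Trpm1 cluster of the 3 control mice and 2, 1 and 5 in the Grik1 cluster. Cplx4 in control bipolar cells thus came mainly from the Trpm1 cluster.

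Among the 5 amacrine clusters, Cplx3 was highest in a cluster of 309 cells whose genes included Gjd2, Drd2 and Slc6a9, the last the glycine transporter of glycinergic amacrine cells. This cluster held 1 amacrine marker among its 10 leading genes, and its highest average marker score was for horizontal cells. Cplx3 was at 2253 ± 588 CPM there (SD, n = 11), against 435 in the cluster led by Ebf3, 250 in that led by Cartpt, 317 in the Tfap2b cluster and 159 in the Slc5a7 cluster. In the Gjd2 cluster the control mice were at 3279, 2260 and 3252 CPM of Cplx3, the Phase I ROP mice at 1991, 2738 and 1768, the ω-3 mice at 1568 and 2149 and the ω-6 mice at 1718, 2060 and 1998. The control and Phase I ROP mice overlapped. In the Cartpt cluster Cplx3 was at 407.8, 345.1 and 418.2 CPM in control and 227.3, 240.5 and 204.9 in Phase I ROP, without overlap, and in the Ebf3 cluster at 598.1, 434.4 and 480.1 against 383.2, 568.7 and 479.8, with overlap. The Gjd2 cluster made up 7.80% to 8.40% of the amacrine cells of control mice and 7.42% to 13.4% of those of Phase I ROP mice.

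Rims1 in amacrine cells came from 1 small cluster. Rims1 was at 7114 ± 1036 CPM (SD, n = 7 mice with 10 or more cells) in the 128 cells that carried Slc5a7 and Slc18a3, the choline and acetylcholine transporters of cholinergic amacrine cells, and at no more than 73.8 CPM in any other of these clusters. Rims1 was itself a leading gene of this cluster. When cells were clustered without the 10 genes, a matching cluster of 117 cells held Rims1 at 7082 CPM, and a matching Gjd2 cluster of 311 cells held Cplx3 at 2260 CPM. The Rims1 level of a whole amacrine sum thus contains the share of this cluster, which supplied 4.88% to 15.6% of amacrine UMIs in control mice and 5.12% to 9.50% in Phase I ROP mice.

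**Figure D2:**
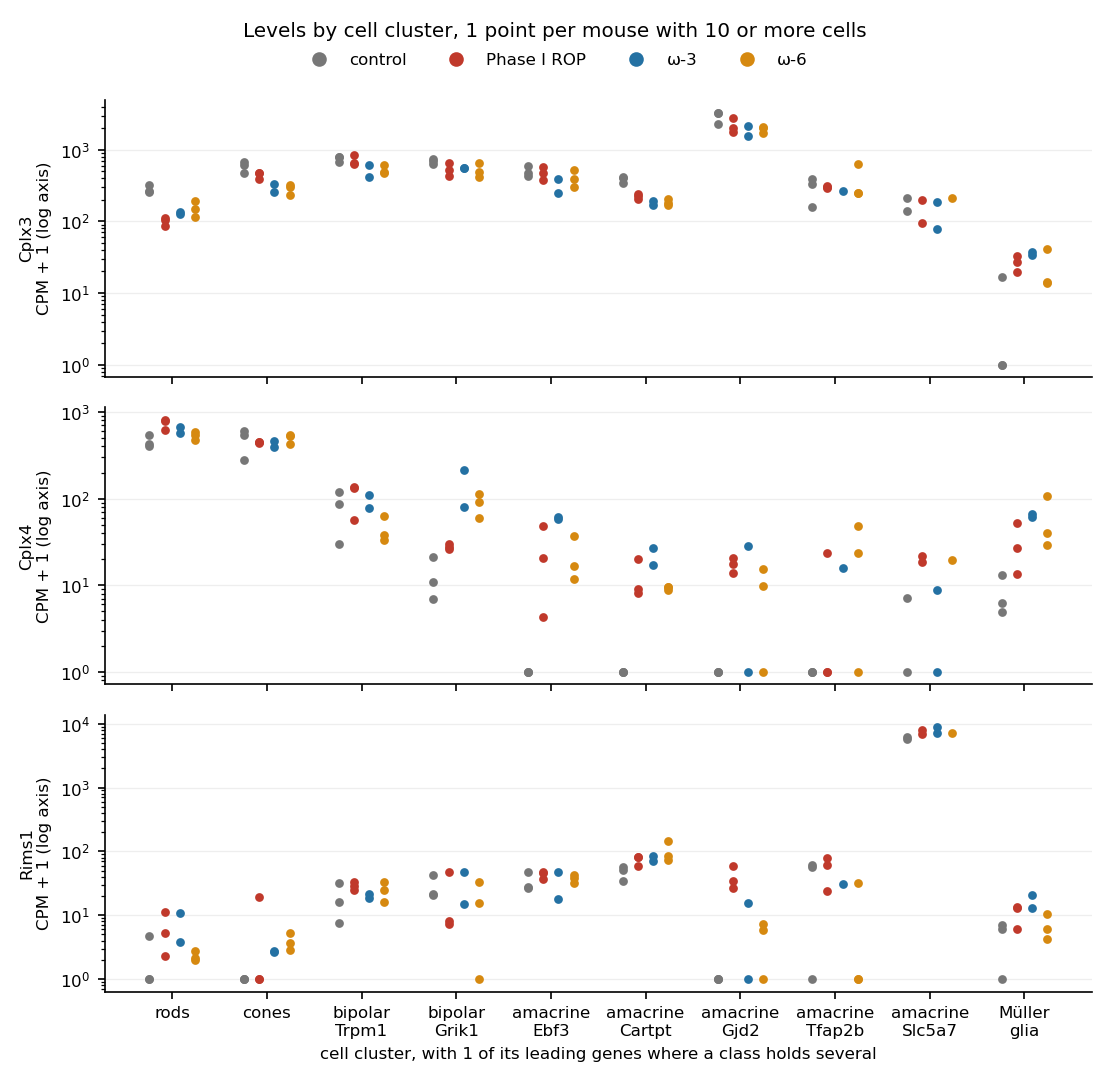
Cplx3, Cplx4 and Rims1 in the clusters of rods, cones, bipolar and amacrine cells, as CPM + 1 on a log axis, with 1 point per mouse that had 10 or more cells in the cluster and colours for the 4 groups. Cplx3 peaked in the amacrine cluster with Gjd2 (2253 CPM), Rims1 in the cholinergic cluster (7114 CPM) and Cplx4 in rods (584 CPM).

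Phase I ROP was then compared with control in each class with edgeR's quasi-likelihood test on the UMI sums per mouse, fitted on all genes that passed its expression filter. Levels in these comparisons are scaled CPM, that is CPM divided by the trimmed mean of M-values (TMM) factor of each sum, and a change was called at an adjusted p (Benjamini-Hochberg over all genes tested) under 0.05. In rods, 8 of the 10 genes passed the filter and 5 were called, 4 higher and 1 lower. Of all 6308 genes tested there, 34% were called, 18.4% higher and 15.6% lower. In cones 7 were tested and 1 was called, higher, beside 18.8% of all genes (10.9% higher and 7.9% lower). In bipolar cells all 10 were tested and 4 were called, 3 higher and 1 lower, beside 45.3% of all genes (21.3% higher and 23.9% lower). In amacrine cells 7 were tested and 4 were called, 3 higher and 1 lower, beside 38.8% of all genes (18.3% higher and 20.5% lower). The share of called members was thus near or under the background in bipolar cells and cones, and the calls below are values of single genes. Not tested for low counts were Bsn and Rims1 in rods and cones, Pclo in cones, and Cacna1f, Cacna2d4 and Cplx4 in amacrine cells. A gene absent from one group can pass the filter through the other, so these counts do not stand for all 10 genes. The median log2 fold change of the tested members was 0.92 in rods (all genes 0.15) and 0.33 in cones (0.10). It was 0.36 in amacrine cells and 0.46 in bipolar cells (all genes 0.02 in each).

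The direction of the calls over all genes depended on the scaling. Scaling by total UMIs with no TMM factor raised the median over all genes by 0.425 on the log2 scale in bipolar cells, 0.354 in amacrine cells, 0.320 in cones and 0.197 in rods. The share of all called genes that were higher in Phase I ROP went from 54.2% to 68.2% in rods, from 57.9% to 82.7% in cones, from 47.1% to 74.7% in bipolar cells and from 47.1% to 74.3% in amacrine cells. The changes given here are relative to the TMM scale, and a result that this scaling turns is named beside its value.

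**Figure D3:**
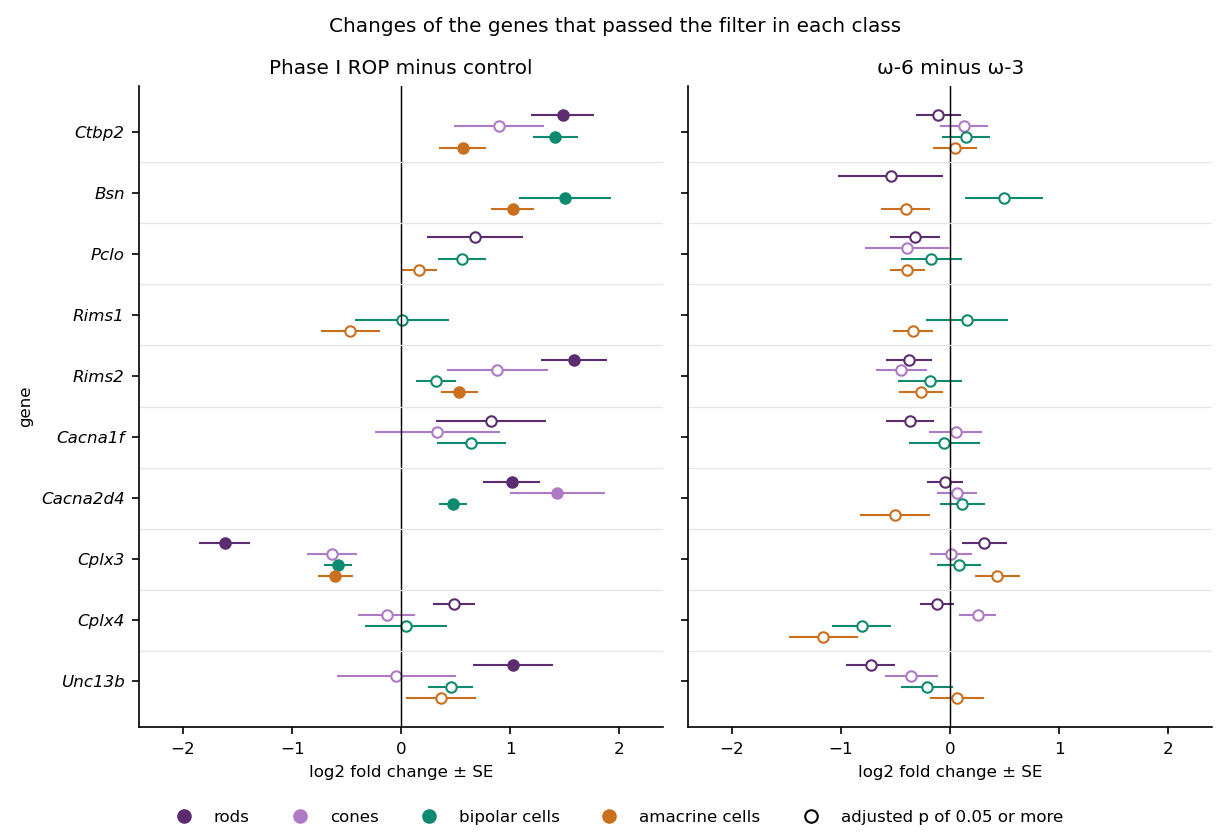
Log2 fold changes of the tested genes in each class for Phase I ROP minus control and for ω-6 minus ω-3, with bars of 1 SE derived from edgeR's F statistic. Filled circles have an adjusted p under 0.05 and open circles do not. Cplx3 lay below 0 in rods, bipolar and amacrine cells of Phase I ROP, and every circle of the diet comparison was open.

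Complexin 3 fell in Phase I ROP in rods, bipolar cells and amacrine cells. In rods, Cplx3 was at 314.0, 360.3 and 310.9 scaled CPM in the control mice (43, 25 and 68 UMIs) and at 111.6, 87.5 and 113.9 in the Phase I ROP mice (82, 42 and 103 UMIs). The groups were far apart, with every Phase I ROP mouse under every control mouse. The log2 fold change was -1.62 ± 0.24 (SE, adjusted p = 2.25e-05), a level 3.07-fold lower, and over all alternatives it stayed between -1.84 and -1.37. In bipolar cells Cplx3 was at 949.6, 809.6 and 929.7 scaled CPM in control and at 560.7, 696.2 and 546.9 in Phase I ROP, again without overlap (log2 fold change -0.58 ± 0.13, adjusted p = 0.00268, 1.49-fold lower). In amacrine cells it was at 783.3, 569.6 and 750.9 against 472.7, 547.0 and 366.2 (log2 fold change -0.60 ± 0.16, adjusted p = 0.00814, 1.52-fold lower). There the lowest control mouse and the highest Phase I ROP mouse nearly met.

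The decrease of Cplx3 in bipolar and amacrine cells depended on the scaling, and that in rods did not. With total-UMI scaling the call was kept in rods (-1.43, adjusted p = 9.87e-05) and lost in bipolar cells (-0.15, adjusted p = 0.387) and amacrine cells (-0.25, adjusted p = 0.226). As plain CPM, Cplx3 in bipolar cells was at 780.9, 664.2 and 775.8 in control and 590.7, 788.3 and 609.6 in Phase I ROP, which overlap. In rods it was at 264.6, 317.9 and 255.4 against 103.3, 85.8 and 111, which do not. The amacrine call was also lost without Phase I ROP replicate 3 (-0.44, adjusted p = 0.0575). In cones, Cplx3 was at 821.3, 619.1 and 971.3 scaled CPM in control and 500.6, 543.5 and 557.0 in Phase I ROP, and the difference did not pass the threshold (log2 fold change -0.64 ± 0.23, adjusted p = 0.0554), although the groups did not overlap. It was called without control replicate 2 (-0.79, adjusted p = 0.0378) and with cells of more than 500 genes (-0.66, adjusted p = 0.0492). The weakest values were -0.37 with no expression filter (adjusted p = 0.648) and -0.28 with sums thinned to equal totals (adjusted p = 0.569).

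Markers of other cells were read beside the rod result. The 19 amacrine markers summed to 458 to 533 CPM in control rods and 329 to 384 in Phase I ROP rods, with 6 of them at 0 in control. The 16 bipolar markers summed to 691 to 941 and 772 to 952, which overlapped, and the 11 cone markers to 509 to 781 and 341 to 453. By group mean, 2 of the 16 bipolar, 7 of the 11 cone and 8 of the 19 amacrine markers were higher in Phase I ROP rods. The overlapping bipolar sums thus do not describe most bipolar markers. A list of 13 rod markers summed to 23027 to 28071 CPM in control rods and 32677 to 45676 in Phase I ROP rods, each of the 13 being higher. The part of these lists in the Cplx3 difference was not tested. Adding the unnamed clusters of rod profile to the rods left Cplx3 at a log2 fold change of -1.61 (adjusted p = 1.8e-05).

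Complexin 4 did not pass the threshold in rods, cones or bipolar cells, and was not tested in amacrine cells. In rods, Cplx4 was at 649.9, 461.2 and 512.1 scaled CPM in control and 660.0, 822.5 and 812.0 in Phase I ROP (log2 fold change 0.48 ± 0.19, 95% interval 0.10 to 0.86, adjusted p = 0.0583). The highest control mouse lay just under the lowest Phase I ROP mouse. Under 6 alternatives it was called, among them total-UMI scaling (0.68, adjusted p = 0.00895) and sums thinned to equal totals (0.66, adjusted p = 0.0136), and without Phase I ROP replicate 1 (0.64, adjusted p = 0.0222). In cones it was at 785.6, 722.3 and 400.8 against 563.8, 527.0 and 526.7 (-0.13 ± 0.26, adjusted p = 0.757), with Phase I ROP inside the control range. In bipolar cells it was at 113.9, 84.2 and 32.0 against 45.7, 94.5 and 94.6 (0.04, 95% interval -0.69 to 0.77, adjusted p = 0.934), and the control mice alone spanned more than the groups differed by. Total-UMI scaling turned the sign in cones to 0.17.

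**Figure D4:**
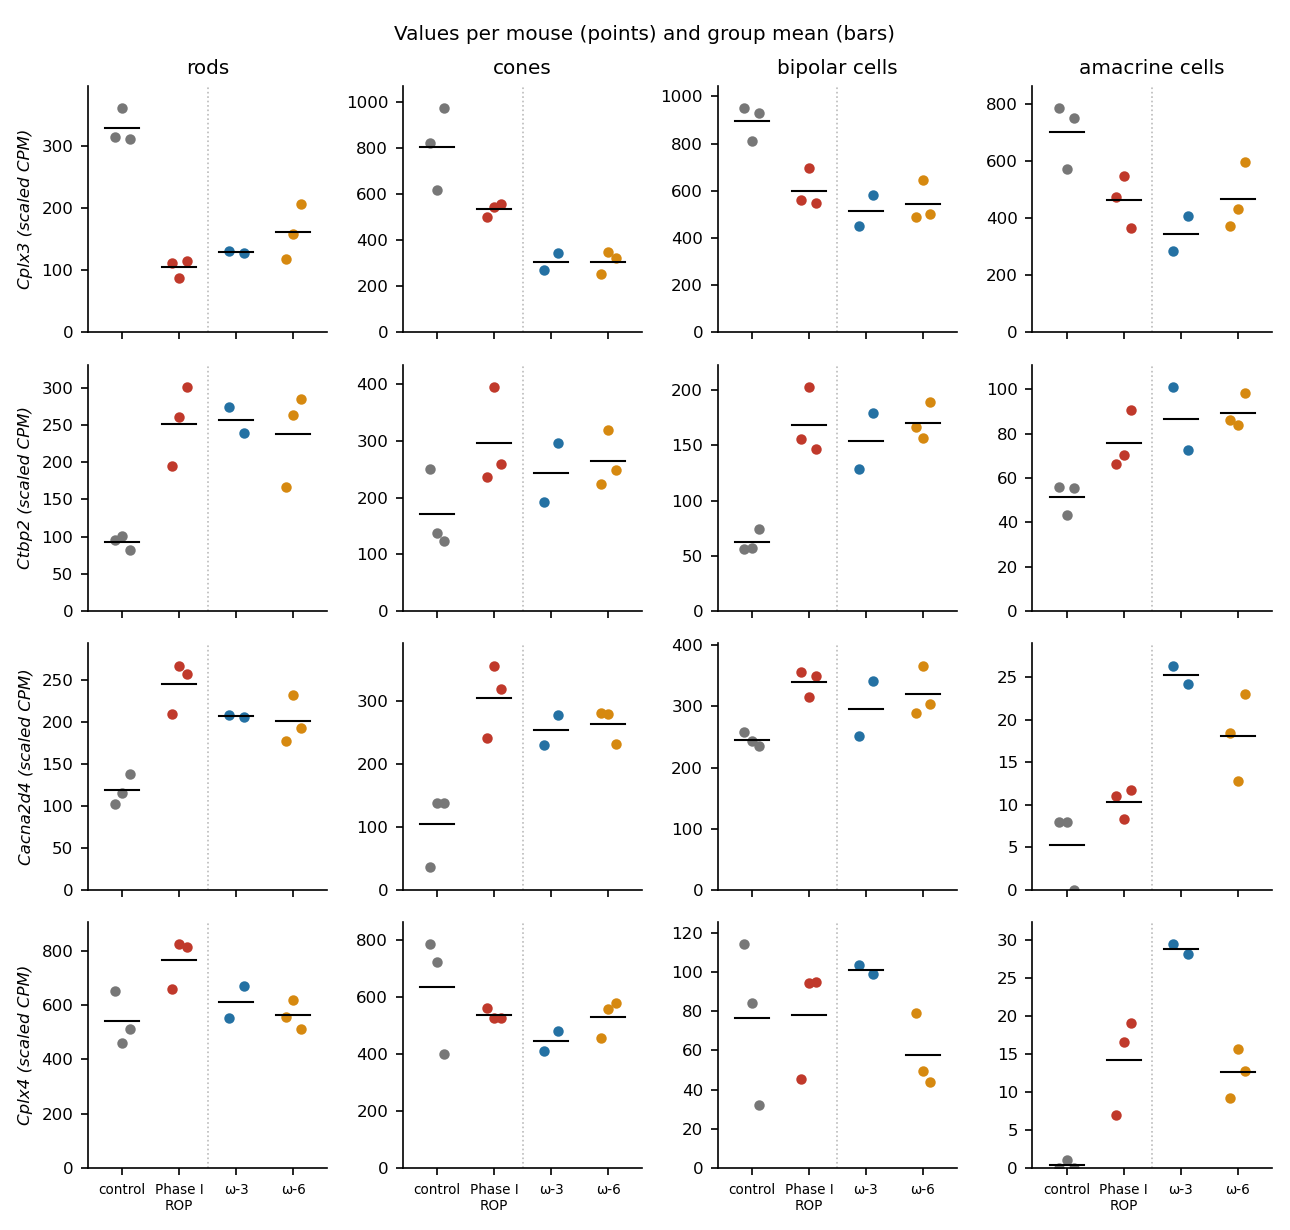
Scaled CPM of Cplx3, Ctbp2, Cacna2d4 and Cplx4 in the 4 classes, with 1 point per mouse, a bar at each group mean and a dotted line between the 2 comparisons, which were scaled separately. In rods the 3 control mice lay between 310.9 and 360.3 for Cplx3 and the 3 Phase I ROP mice between 87.5 and 113.9.

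The ribbon gene Ctbp2 rose in Phase I ROP in rods, bipolar cells and amacrine cells. In rods, Ctbp2 was at 94.9, 100.9 and 82.3 scaled CPM in control and at 194.6, 260.3 and 300.9 in Phase I ROP, a log2 fold change of 1.48 ± 0.29 (adjusted p = 0.000471, 2.79-fold). In bipolar cells it was at 56.3, 57.1 and 74.7 against 155.4, 202.9 and 146.7 (1.41 ± 0.21, adjusted p = 0.000106, 2.66-fold). In both classes the lowest Phase I ROP mouse was well above the highest control mouse, and over all alternatives the log2 fold change stayed at 1.33 to 2.04 in rods and 1.27 to 1.84 in bipolar cells. Both bipolar clusters showed it: in plain CPM the Trpm1 cluster was at 42.3, 49.6 and 56.3 in control and 154.8, 190.9 and 167.2 in Phase I ROP, and the Grik1 cluster at 59.4, 35.8 and 81.3 against 191.4, 333.0 and 151.9. In amacrine cells Ctbp2 was at 55.7, 43.4 and 55.3 scaled CPM against 66.1, 70.5 and 90.6 (0.56 ± 0.21, adjusted p = 0.0475, 1.48-fold), a call that was lost under 12 alternatives. Over all its alternatives the adjusted p ran from 0.00329 to 0.178. In cones it was at 249.95, 137.6 and 123.3 against 235.9, 395.2 and 259.0, groups that overlapped (0.89 ± 0.41, adjusted p = 0.126); total-UMI scaling called it (1.22, adjusted p = 0.0365).

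Bassoon rose in bipolar and amacrine cells. In amacrine cells, where Bsn was best covered, it was at 56.8, 51.4 and 47.2 scaled CPM in control and 94.1, 124.3 and 98.8 in Phase I ROP (log2 fold change 1.02 ± 0.20, adjusted p = 0.00101, 2.03-fold), and it was called under every alternative at 0.90 to 1.38. Within the Cartpt cluster, plain CPM of Bsn was 73.8, 37.6 and 42.8 in control and 151.5, 126.6 and 126.5 in Phase I ROP. In bipolar cells the sums held 9, 6 and 8 UMIs against 24, 9 and 25, or 12.7, 8.6 and 9.5 scaled CPM against 36.6, 15.7 and 34.3 (1.5 ± 0.42, adjusted p = 0.00985, 2.83-fold). The bipolar call was lost without Phase I ROP replicate 1 (1.30, adjusted p = 0.0572) or replicate 3 (1.37, adjusted p = 0.0569). Rods held 3 Bsn UMIs in all control mice and 26 in all Phase I ROP mice, too few to test, and the ratio of their CPM was 1.99 with a 95% counting interval of 0.609 to 10.3.

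Piccolo did not pass the threshold in any class tested. Pclo in rods was at 43.8, 28.8 and 36.6 scaled CPM in control and 49.0, 64.5 and 67.5 in Phase I ROP (log2 fold change 0.68 ± 0.44, adjusted p = 0.239). In bipolar cells it was at 47.8, 68.5 and 67.6 against 97.5, 82.2 and 91.8 (0.56 ± 0.22, adjusted p = 0.0507). The groups did not overlap in either class. In amacrine cells, which had the highest level, it was at 167.1, 138.1 and 213.0 against 175.3, 209.3 and 192.2, with overlap (0.16 ± 0.17, 95% interval -0.17 to 0.48, adjusted p = 0.468). Total-UMI scaling called Pclo in bipolar cells (0.98, adjusted p = 0.00204) and amacrine cells (0.52, adjusted p = 0.0209).

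Of the RIM genes, Rims2 rose in rods and amacrine cells. Rims2 in rods was at 80.3, 57.6 and 59.4 scaled CPM in control and 174.2, 193.6 and 227.9 in Phase I ROP, a log2 fold change of 1.59 ± 0.30 (adjusted p = 0.000406, 3.00-fold). The groups were far apart, and the fold change stayed at 1.38 to 2.12 over all alternatives. In amacrine cells it was at 72.8, 79.9 and 74.1 against 115.2, 108.8 and 104.2 (0.53 ± 0.17, adjusted p = 0.0221, 1.45-fold), a tight separation that was no longer called with DESeq2 (adjusted p = 0.0781) or without control replicate 1 (0.49, adjusted p = 0.0763), Phase I ROP replicate 1 (0.50, adjusted p = 0.0665) or Phase I ROP replicate 2 (0.54, adjusted p = 0.0564). In bipolar cells it was at 113.9, 142.8 and 106.7 against 152.4, 167.9 and 133.0 (0.32 ± 0.18, adjusted p = 0.166) and in cones at 107.1, 68.8 and 123.3 against 212.9, 230.6 and 146.8 (0.88 ± 0.46, adjusted p = 0.18). Total-UMI scaling called the bipolar difference (0.74, adjusted p = 0.00379).

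Rims1 was measured well only in amacrine cells, where the mice of 1 group differed widely. Rims1 was at 408.1, 1078.6 and 714.5 scaled CPM in control and 398.6, 464.2 and 727.0 in Phase I ROP (log2 fold change -0.47 ± 0.27, adjusted p = 0.184). The control range contained nearly all of the Phase I ROP range. It was called without control replicate 1 (-0.77, adjusted p = 0.0194) and with no expression filter (-0.44, adjusted p = 0.0191). The cholinergic cluster supplied 4.88%, 15.6% and 9.28% of the amacrine UMIs of these control mice and 5.12%, 6.5% and 9.5% of those of the Phase I ROP mice, and within each group its share stood in the same order as Rims1. Its part in the difference was not tested. Within that cluster Rims1 was at 5695 and 6145 CPM in the 2 control mice with 10 or more cells and at 6977 and 7880 in the 2 Phase I ROP mice. In bipolar cells Rims1 was at 19.7, 40.0 and 11.9 scaled CPM against 30.5, 22.7 and 17.8 (0.01 ± 0.43, 95% interval -0.84 to 0.86, adjusted p = 0.99).

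Unc13b rose in rods on a result near the threshold. It was at 43.8, 57.6 and 50.3 scaled CPM in control rods and 85.7, 95.8 and 120.6 in Phase I ROP rods (log2 fold change 1.03 ± 0.37, adjusted p = 0.0346, 2.04-fold). The groups did not overlap, but the call was lost under 8 alternatives, including DESeq2 (adjusted p = 0.0724) and the removal of control replicate 1, 2 or 3 (adjusted p = 0.134, 0.052 and 0.112) or of Phase I ROP replicate 2 or 3 (adjusted p = 0.0732 and 0.146). In bipolar cells Unc13b was at 76, 82.8 and 61.7 against 112.7, 91.0 and 97.3 (0.45 ± 0.21, adjusted p = 0.086), called with total-UMI scaling (0.88, adjusted p = 0.00265). In amacrine cells it was at 20.5, 14.8 and 24.3 against 30.0, 21.8 and 24.5 (0.36 ± 0.32, adjusted p = 0.392). In cones it was at 107.1, 137.6 and 61.7 against 103.6, 82.3 and 82.0 (-0.04 ± 0.55, adjusted p = 0.963), where 5 scalings, filters or fits turned the sign.

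The α2δ subunit gene Cacna2d4 rose in rods, cones and bipolar cells, and it was the only one of the 10 called in cones. Cacna2d4 in rods was at 102.2, 115.3 and 137.2 scaled CPM in control and 209.6, 266.5 and 256.7 in Phase I ROP (log2 fold change 1.01 ± 0.26, adjusted p = 0.00511, 2.02-fold). In bipolar cells, where it was best covered, it was at 257.4, 242.8 and 236.0 against 356.5, 314.9 and 349.5 (0.47 ± 0.13, adjusted p = 0.00936, 1.39-fold). The groups were separate in both, although the rod call was lost without control replicate 1 (0.84, adjusted p = 0.0527) and with sums thinned to equal totals (0.76, adjusted p = 0.123). In cones the control sums held only 1, 4 and 9 UMIs, or 35.7, 137.6 and 138.8 scaled CPM, against 241.6, 356.8 and 319.5 in Phase I ROP (1.43 ± 0.43, adjusted p = 0.0235, 2.70-fold). That call was lost without control replicate 1 (1.13, adjusted p = 0.0883), control replicate 3 (1.88, adjusted p = 0.0577), Phase I ROP replicate 2 (1.43, adjusted p = 0.0685) or Phase I ROP replicate 3 (1.51, adjusted p = 0.06). The 13 rod markers, several of which cones also express, summed to 12162 to 13284 CPM in control cones (Cnga1 at 0) and 15805 to 21822 in Phase I ROP cones, and the 11 cone markers to 30261 to 34073 and 18633 to 21880. Their part in the cone result was not tested.

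The pore gene Cacna1f did not pass the threshold in rods, cones or bipolar cells. In rods Cacna1f was at 14.6, 57.6 and 27.4 scaled CPM in control and 54.4, 54.1 and 45.4 in Phase I ROP (log2 fold change 0.83 ± 0.50, adjusted p = 0.209). The second control mouse was above all Phase I ROP mice. In bipolar cells it was at 25.3, 18.6 and 33.2 against 36.6, 47.2 and 38.4 (0.64 ± 0.32, adjusted p = 0.112), and total-UMI scaling called it (1.07, adjusted p = 0.0128). In cones it was at 35.7, 68.8 and 92.5 against 86.3, 109.8 and 82.0 (0.33 ± 0.57, adjusted p = 0.723).

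Whether a change differed between classes was tested directly, as the interaction of class and group with the mouse as a block, over 10 members in each pair of classes. The decrease of Cplx3 in rods was larger than that in bipolar cells by 1.12 ± 0.25 on the log2 scale (adjusted p = 0.0183) and larger than that in amacrine cells by 1.07 ± 0.27 (adjusted p = 0.00681). Bipolar and amacrine cells differed by 0.10 ± 0.12 (95% interval -0.14 to 0.33, adjusted p = 0.848). No alternative subtracted bipolar or amacrine RNA from the rods, so its part in the differences from rods was not tested. The bipolar difference for Cplx3 lost its call without control replicate 1 (1.13, adjusted p = 0.0567), control replicate 3 (1.08, adjusted p = 0.0529) or Phase I ROP replicate 2 (0.92, adjusted p = 0.242), with no expression filter (0.91, adjusted p = 0.0536) and in cells with more than 500 genes (0.97, adjusted p = 0.0747). The amacrine difference lost its call without Phase I ROP replicate 1 (0.75, adjusted p = 0.205) or replicate 2 (0.49, adjusted p = 0.432), with DESeq2 (1.14, adjusted p = 0.0851) and with no expression filter (0.88, adjusted p = 0.0675). Members called were Cplx3 for bipolar cells against rods, Cplx3 and Cplx4 for amacrine cells against rods, and Cplx4 for amacrine against bipolar cells. These 1, 2 and 1 calls stood beside 1.04%, 3.94% and 1.82% of all genes. The Cplx4 calls came from a gene too sparse to be tested in amacrine cells alone, and they are not read as results.

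The other genes gave no called difference apart from Cplx4. The change of Ctbp2 in bipolar cells minus that in rods was 0.03 (95% interval -0.67 to 0.73), and in amacrine cells minus rods it was -0.82 (adjusted p = 0.287). Rims2 changed by 1.11 less in bipolar cells than in rods on the log2 scale (-1.11 ± 0.38, adjusted p = 0.191). With the unnamed clusters of rod profile added to the rods, the Rims2 difference was called (-1.17, adjusted p = 0.0192), as was that of Ctbp2 between amacrine cells and rods (-1.27, adjusted p = 0.00993). Cacna2d4 in bipolar cells minus rods was at -0.42 (adjusted p = 0.658). The fitted Cplx4 change in amacrine cells minus that in rods was 4.17 ± 0.80 (adjusted p = 7e-05), and minus that in bipolar cells 4.81 ± 0.75 (adjusted p = 0.00114). Cplx4 was too sparse to be tested in amacrine cells alone and entered these fits through the other class. The control amacrine sums held 0, 1 and 0 UMIs, so the size of these fitted values depends on the prior count and nothing is read from it.

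Cplx4 outside photoreceptors was therefore set beside a rod profile scaled to the UMIs of Pdc in each class. The profile gave the number of Cplx4 UMIs that rod RNA would bring if all Pdc of the class came from rods. Whether Pdc there came from free rod RNA, from doublets or from the cells themselves was not tested. Pdc encodes phosducin, a photoreceptor protein, and was taken for its high counts in rods after the data had been seen. In amacrine cells Cplx4 had 7, 16 and 21 UMIs in the Phase I ROP mice, 44 in all, and the rod profile gave 45.0. The rod profile gave 91.2 against 81 counted in ω-3 and 77.1 against 53 in ω-6 amacrine cells, and 4.48 against 1 in control. Müller glia were alike, with 21.1 against 22 in Phase I ROP, 66.9 against 78 in ω-3 and 64.5 against 68 in ω-6 mice. By mouse the profile gave 12.4, 11.9 and 20.7 in Phase I ROP, so subtracting it left almost no Cplx4 UMIs in amacrine cells. The amacrine differences of Cplx4 were then 2.47 from rods (adjusted p = 0.378) and 3.64 from bipolar cells (adjusted p = 0.45). With so few counts left neither could readily be called, and nothing is read from the lost calls. The ratio of Cplx4 in Phase I ROP to control amacrine cells was 45.6 in CPM, with a 95% counting interval of 7.77 to 1841. Cacna2d4 in amacrine cells was also too sparse to test, with 7, 7 and 0 UMIs in control and 11, 8 and 13 in Phase I ROP. For it the rod profile gave 0.229, 0.257 and 0.534 in control and 3.93, 3.86 and 6.53 in Phase I ROP.

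In bipolar cells the share differed by group. The rod profile gave 39.4 of 167 Cplx4 UMIs in control bipolar cells (23.6%), 64.3 of 153 in Phase I ROP (42%), 143 of 215 in ω-3 (66.4%) and 120.5 of 127 in ω-6 (94.9%). Pdc in bipolar cells was at 157.6, 134.2 and 270.4 scaled CPM in control and 213.3, 374.3 and 459.2 in Phase I ROP, ranges that overlap. With rod RNA subtracted, the Phase I ROP change of Cplx4 in bipolar cells was -0.30 in place of 0.04, neither past the threshold. For Cplx3, whose rod level was low, the rod profile gave 0.747% to 2.70% of bipolar UMIs and at most 1.99% of amacrine UMIs. It gave 6.65% of Ctbp2, 1.73% of Bsn and 3.07% of Cacna2d4 in Phase I ROP bipolar cells and 6.44% of Ctbp2 and 0.221% of Bsn in Phase I ROP amacrine cells. Cones express Pdc themselves, so the same calculation does not give a share of rod RNA in them and is not reported.

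**Figure D5:**
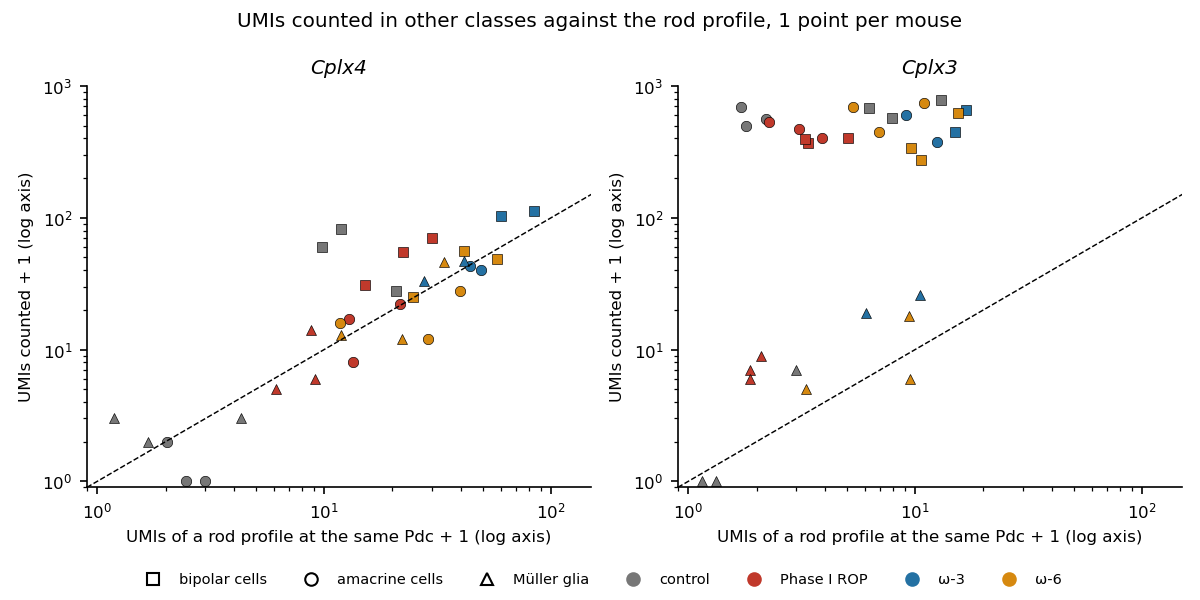
UMIs counted (vertical) against UMIs that the scaled rod profile gave (horizontal), both + 1 on log axes, for Cplx4 and Cplx3 in bipolar cells, amacrine cells and Müller glia, by group. The dashed line marks equality. Amacrine and Müller points of Cplx4 lay on both sides of the line, and bipolar and amacrine points of Cplx3 lay far above it. For Cplx4 in amacrine cells, Phase I ROP mice had 44 counted and 45.0 from the profile, and ω-6 replicate 1 had 11 and 27.8.

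Other synaptic genes were read from 5 lists of 86 genes in all, covering the active zone, calcium channels, SNARE and vesicle proteins, endocytosis, and the cleft and postsynaptic side. In rods 43 were tested and 16 were called, all 16 higher in Phase I ROP. In cones 35 were tested, 7 rose and 3 fell, in bipolar cells 65 were tested, 32 rose and 4 fell, and in amacrine cells 70 were tested, 27 rose and 6 fell. Of all genes tested, 38.8% were called in amacrine cells, 45.3% in bipolar cells, 18.8% in cones and 34% in rods. By direction, these were 18.3% higher and 20.5% lower in amacrine cells and 21.3% and 23.9% in bipolar cells. In cones they were 10.9% and 7.9%, and in rods 18.4% and 15.6%. The share of higher calls over all genes depended on the scaling, as given above. The median log2 fold change of the lists was 0.65 in rods, 0.61 in cones, 0.46 in bipolar and 0.42 in amacrine cells, against 0.15, 0.10, 0.02 and 0.02 over all genes. By list, rods had 7 of 15 SNARE and vesicle genes higher, 3 of 11 endocytosis genes, 4 of 8 cleft genes and 2 of 2 calcium channel genes, and 0 of 7 active zone genes called. Bipolar cells had 10 of 18 SNARE and vesicle genes higher and 1 lower, and 8 of 13 cleft genes higher and 1 lower. Napb, which encodes β-SNAP of SNARE disassembly, had the largest increase in rods (2.15 ± 0.32, adjusted p = 3.39e-05). It held 22 UMIs in control and 477 in Phase I ROP. Elfn1, an adhesion protein of the photoreceptor synapse, followed (1.87 ± 0.44, adjusted p = 0.00278) on 14 and 250 UMIs, with the lowest control mouse at 0. Elfn2 rose by 2.59 in bipolar cells (adjusted p = 0.000143) on 16 UMIs in control and 85 in Phase I ROP. In amacrine cells Elfn2 rose by 2.70 (adjusted p = 0.00119) on 7 and 58 UMIs. Dag1, dystroglycan of the ribbon synaptic cleft, rose by 2.00 in bipolar cells (adjusted p = 3.6e-05) on 50 and 174 UMIs. Ppfia3, a liprin, rose by 2.62 in amacrine cells (adjusted p = 0.00283) on 6 and 47 UMIs, with the lowest control mouse at 0.

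Decreases in the lists were named by size among called genes whose mice did not overlap. Dlg4, which encodes the scaffold PSD-95, was at -0.80 in bipolar cells (adjusted p = 0.00235) and its relative Dlg1 at -0.77 in amacrine cells (adjusted p = 0.013). The calcium-binding protein genes Cabp5 in bipolar cells (-0.56, adjusted p = 0.0213) and Cabp4 in cones (-0.79, adjusted p = 0.0336) were lower, as were the dynamin gene Dnm3 in cones (-1.20, adjusted p = 0.0307) and the clathrin adaptor gene Ap2m1 in amacrine cells (-0.67, adjusted p = 0.00192). In cones Synj1, the phosphatase synaptojanin of vesicle recycling, rose by 2.05 (adjusted p = 0.0128) on 8 UMIs in control and 163 in Phase I ROP. Ppfia2 rose there by 2.98 (adjusted p = 0.0178) on 2 and 79 UMIs. The lowest control mouse was at 0 for both genes.

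Paralogs of the 10 genes were read beside them. Cplx2, a complexin of conventional synapses, was at -0.56 in rods (adjusted p = 0.213), -0.14 in bipolar cells (adjusted p = 0.721) and 0.05 in amacrine cells (adjusted p = 0.855). Cplx1 was at -0.53 in bipolar cells (adjusted p = 0.284) and -0.06 in amacrine cells (adjusted p = 0.86). Neither was called in a class where it was tested, and Cplx1 was not tested in rods. In bipolar cells Cplx1 (-0.53 ± 0.40) lay close to Cplx3 (-0.58 ± 0.13), and the SE of Cplx2 in rods was 0.34. Whether these paralogs changed differently from Cplx3 was not tested. Ctbp1, the corepressor relative of Ctbp2, rose in bipolar cells (0.96 ± 0.19, adjusted p = 0.00119) and amacrine cells (0.56 ± 0.18, adjusted p = 0.0205) and was at 0.51 in rods (adjusted p = 0.368) and 1.21 in cones (adjusted p = 0.195). Unc13a rose in amacrine cells (1.03 ± 0.30, adjusted p = 0.0139) and was at 0.90 in bipolar cells (adjusted p = 0.0555). Cacna1d, the pore gene of a related L-type channel, rose in bipolar cells (1.03 ± 0.32, adjusted p = 0.0184) and was at 0.40 in amacrine cells (adjusted p = 0.259).

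The ω-6 diet was then compared with the ω-3 diet among the STZ-treated mice. None of the 10 genes was called in any class by edgeR, with 10 tested in bipolar cells, 9 each in amacrine cells and rods and 8 in cones. Rims1 in rods and cones, Bsn in cones and Cacna1f in amacrine cells had too few counts. Over all genes edgeR called 2 of 11033 in rods (0.0181%) and 0 in cones, bipolar cells and amacrine cells (0%), and DESeq2 called 20, 5, 2 and 8 in the 4 classes, 0 of them members. At an unadjusted p under 0.05 there were 1140, 736, 503 and 1298 genes, among them 1, 0, 1 and 2 members. The log2 fold changes of the members ran from -0.73 to 0.31 in rods, -0.45 to 0.25 in cones, -0.81 to 0.49 in bipolar cells and -1.16 to 0.43 in amacrine cells, and the smallest adjusted p was 0.376, 0.663, 0.991 and 0.422.

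Cplx3 in rods was at 130.9 and 126.8 scaled CPM in the ω-3 mice and 118.3, 158.3 and 206.6 in the ω-6 mice (log2 fold change 0.31, adjusted p = 0.62), the ω-6 mice spanning the ω-3 mice. In cones Cplx3 was at 268.7 and 345.2 against 251.1, 347.6 and 321.6 (0.00, 95% interval -0.37 to 0.38), and in bipolar cells at 448.8 and 582.2 against 488.0, 645.3 and 501.0 (0.08, 95% interval -0.31 to 0.48). In amacrine cells it was at 282.6 and 406.9 against 371.3, 431.3 and 596.0 (0.43 ± 0.20, adjusted p = 0.506). Ctbp2 in rods was at 273.7 and 238.5 in ω-3 and 166.9, 263.1 and 285.2 in ω-6 (-0.11, 95% interval -0.50 to 0.29). The diet groups overlapped in each of these 5 sets of values.

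The 4 differences with an unadjusted p under 0.05, in 3 members, were all lower in ω-6 mice and none held after adjustment. Unc13b in rods was at 78.7 and 114.5 scaled CPM in ω-3 and 60.1, 67.1 and 48.3 in ω-6 (log2 fold change -0.73 ± 0.23, adjusted p = 0.376). Pclo in amacrine cells was at 188.4 and 240.4 against 143.3, 177.3 and 169.3 (-0.39 ± 0.16, adjusted p = 0.492). Cplx4 was at 103.4 and 98.9 against 78.9, 49.7 and 43.7 in bipolar cells (-0.81 ± 0.27, adjusted p = 0.991) and at 29.4 and 28.2 against 9.2, 15.7 and 12.8 in amacrine cells (-1.16 ± 0.32, adjusted p = 0.422). Pdc stood beside Cplx4 at 662.7 and 754.4 against 795.2, 864.9 and 779.7 scaled CPM in bipolar cells and at 404.7 and 294.8 against 321.0, 331.3 and 165.0 in amacrine cells. Its part in the Cplx4 difference was not tested. The 5 synapse lists gave no called gene in the diet comparison, with 51, 52, 73 and 78 genes tested in rods, cones, bipolar cells and amacrine cells.

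Levels of 4 members in the 4 groups were set side by side in plain CPM. Ctbp2 in rods was at 78.9 ± 10.7 CPM in control (SD, n = 3), 243 ± 57.5 in Phase I ROP (n = 3), 262 ± 30.7 in ω-3 (n = 2) and 224 ± 52.8 in ω-6 (n = 3). Cplx3 in rods was at 279 ± 33.7, 100 ± 12.9, 132 ± 5.6 and 151 ± 36.7 in the same order, so that the control mice were the highest. Cplx3 in bipolar cells was at 740 ± 66.0, 663 ± 109, 515 ± 109 and 521 ± 87.4, and Cacna2d4 in bipolar cells at 203 ± 7.98, 374 ± 16.6, 296 ± 71.5 and 306.5 ± 41.0. Bsn in amacrine cells was at 44.4 ± 4.83, 115.5 ± 20.3, 98.9 ± 15.7 and 70.4 ± 17.4. The ω-3 and ω-6 mice came from a second set of littermates, so their levels beside the control mice are a description and were not tested.

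The genes whose levels ran most like those of the complexins across the 44 sums of class and mouse were taken from 12164 genes by Pearson correlation of log2 CPM. For Cplx3 these were Nme1 (r = 0.914), Hmgn3 (0.909), Rpl10 (0.893), Gm20390 (0.880) and Pgrmc1 (0.880). For Cplx4 they were Plekhb1 (0.963), Platr17 (0.962), Rom1 (0.960), Gngt1 (0.959) and Rbp3 (0.953), of which Rom1, Gngt1 and Rbp3 encode known photoreceptor proteins. Sums of 1 mouse share a library and its depth, and these values are a description.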

How the data were processed

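Per the labels and the study's methods, the authors dissociated retinas with papain, made inDrop libraries and counted UMIs with the umis tool in bcbio-nextgen, using Rapmap and a GENCODE annotation on mm10 (GRCm38.p6). The authors deposited 1 table of raw UMI counts per gene and cell, with cell names that carry the mouse. From these counts, cells with more than 300 genes were kept and clustered in Seurat 5.3.0 (2000 variable genes, 75 components, resolution 0.2), and a cluster took the name of the class with the most markers among its 10 leading genes (1 or more), where no other class had as many and 3 or more of its markers were found in at least 10% of the cells. The other 11 clusters stayed unnamed, among them those where classes tied. Scrublet (scanpy 1.11.5, Python 3.11.15) marked under 0.5% of cells, which is too few to trust, so no doublet was removed in the main results and the top 5% (1006 cells) were removed as an alternative. UMIs were summed per mouse and class (10 or more cells per mouse) and tested in R 4.3.3 with edgeR 4.0.16 (glmQLFit and glmQLFTest, TMM, filterByExpr) and limma 3.58.1, with DESeq2 1.42.0 as an alternative. The study tested cells as replicates and here the mouse is the replicate. All 8 group comparisons and 3 class differences were adjusted over all genes tested. The fits were tested on simulated data.

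The 10 genes, the lists and the markers were chosen with earlier results of these data known. The text names all 10 genes, 5 paralogs, and in each class the 2 largest called increases and decreases of the lists whose mice did not overlap. Alternatives were DESeq2, its size factors, no expression filter, cells with more than 500 genes, doublet removal, thinning, a fit over all 4 groups, clustering without the 10 genes, a replicate block and leaving out each mouse. Thinning drew the UMI sums of a class at random down to the smallest sum among the mice compared, which discards counts of the larger sums. Scaling by total UMIs, adding the unnamed rod-profile clusters to the rods and subtracting a rod profile scaled to Pdc were chosen after seeing the data. An alternative based on a gene that is not reported here was left out, and comparisons of markers and of like genes leave such genes out. Intervals on UMI counts cover counting error only.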

Additional observations from a re-analysis of the deposited data

Results flagged for a closer look

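The Phase I ROP change of Cplx3 differed between classes by a test of the interaction: bipolar cells minus rods gave 1.12 on the log2 scale and amacrine cells minus rods 1.07. Cplx4 was flagged by the same kind of test, with fitted values of 4.17 for amacrine cells minus rods and 4.81 for amacrine minus bipolar cells. These rested on 0, 1 and 0 UMIs in the control amacrine sums. Cplx4 was too sparse to be tested in amacrine cells alone and entered these tests through the other class, so they are not read as a difference between classes. Subtracting rod RNA left almost no Cplx4 UMIs in amacrine cells, so the calls that edgeR then lost decide nothing (2.47, adjusted p = 0.378, and 3.64, adjusted p = 0.45).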

How the results depend on the processing

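Single log2 fold changes kept direction and side of the threshold in 622 comparisons with an alternative, lost the call in 46, gained it in 19 and changed sign in 21, and all 120 recomputed levels moved by less than 1 SD between mice. Members called in Phase I ROP against control numbered 5 in rods (3 to 6 leaving out 1 mouse, 3 without control replicate 1), 1 in cones (0 to 2; 2 with more than 500 genes, 2 with total-UMI scaling, 0 thinned), 4 in bipolar cells (3 to 4; 7 with total-UMI scaling) and 4 in amacrine cells (2 to 4; 2 with DESeq2). Class differences called numbered 1 for bipolar cells minus rods (0 to 1 leaving out 1 mouse; 0 with no filter, 0 with more than 500 genes, 2 with the unnamed rod-profile clusters), 2 for amacrine cells minus rods (1 to 2; 1 with DESeq2, with no filter and with rod RNA subtracted) and 1 for amacrine minus bipolar cells (0 with rod RNA subtracted). The cause of these moves was not tested. No diet comparison called a member under any alternative. Control cones, 13 to 46 cells per mouse, and control rods, 75 to 284, limit what the photoreceptor comparisons can show, and 2 ω-3 mice limit the diet comparisons.

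Values that changed sign were these. In cones, Cplx4 was at 0.12 with no filter and 0.17 with total-UMI scaling, and Unc13b at 0.014 with median-of-ratios factors, 0.20 with no filter, 0.0066 with more than 500 genes, 0.0089 in the fit of all 4 groups and 0.27 with total-UMI scaling. In bipolar cells, Rims1 was at -0.18 with more than 500 genes, -0.048 when clustered without the 10 genes and -0.038 thinned, and Cplx4 at -0.22 without the likeliest doublets and -0.30 with rod RNA subtracted. Leaving out 1 mouse at a time gave -0.40 to 0.048 for Cplx4 and -0.38 to 0.20 for Unc13b in cones, and -0.35 to 0.57 for Rims1 and -0.35 to 0.43 for Cplx4 in bipolar cells.

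Replicate numbers are shared between groups but did not pair the mice: same-numbered control and Phase I ROP mice correlated at -0.006 to 0.0985 in their deviations. With the replicate block, members called numbered 4 in bipolar cells, 4 in rods, 3 in amacrine cells and 1 in cones.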
